A study of Mus musculus with 16 samples.

Results

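The Impact locus lies on mouse chromosome 18, and its CpGs were taken from a window of the mm9 genome build between positions 13125000 and 13160000, with the reads of both strands of a CpG summed. Of the 408 CpGs that the reference holds in this window, 33 had at least 10 reads in at least 1 of 16 libraries, out of 1320646 such CpGs in the whole series. Of these 33 CpGs, 22 lay in the imprinting control region (ICR), which spans positions 13130435 to 13133510. They make up 14.9% of the 148 CpGs of the ICR, so that the values below speak for these CpGs and not for the whole region. The window was chosen by methylation values of these same libraries, namely the difference between old and young cells and the differences between β-catenin shRNA and control shRNA. Values of those comparisons, and of comparisons between their control groups, are therefore given as a description without a p-value. The YP-mESC libraries also enter the comparisons of the S33Y clones that were tested.

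Methylation was measured by reduced representation bisulfite sequencing (RRBS), in which unmethylated cytosines are converted and read as thymine, and methylated ones stay cytosines. All libraries came from E14 cells, a line of mouse embryonic stem cells (mESCs), in 8 conditions with 2 replicates each, and the study asked how Wnt/β-catenin signaling and DNA methylation are related. YP-mESCs were kept for about 14 passages and OP-mESCs for about 70 passages. OP-S33Y #1 and OP-S33Y #2 were 2 clones of young cells that overexpress a stable mutant of β-catenin and were then cultured for long like the OP-mESCs, so that each is a single clone. The remaining libraries were mESCs that carried a control shRNA (mESC shCtrl) or a shRNA against β-catenin (mESC shβcat #1), and embryoid bodies (EBs), differentiated aggregates of such cells, with the same 2 constructs (EB shCtrl and EB shβcat #1).

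Impact is an imprinted gene that is expressed from the paternal allele. Its ICR overlaps the promoter and the first intron and normally carries methylation on the maternal allele, so that a mixture of both alleles reads as partly methylated. The protein binds GCN1 and restrains the kinase GCN2, which phosphorylates the translation factor eIF2 under amino acid shortage. RRBS reads the locus without telling the alleles apart, and no expression was measured here.

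The libraries held 18919219 to 40519010 reads on CpGs, where a read that spans several CpGs counts at each, and they covered between 8 (OP-mESC replicate 2) and 33 (EB shβcat #1 replicate 1) CpGs of the window. At the minimum of 10 reads the percentage of a CpG moves in steps of 10 points. Over all CpGs, replicates of a condition differed slightly more than binomial sampling gives, with an overdispersion of 1.1 to 1.2. The study describes its replicates as biological, but the labels do not say whether they came from separate cultures, so a p-value speaks only for these samples. It sets the read counts against a spread between replicates that is shared over all CpGs or all ICRs, not the spread at Impact alone.

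The gene (ENSMUSG00000024423.5) runs on the forward strand from position 13130761 to 13151457 and has 11 exons. The covered CpGs fell into 4 groups, as the map of all CpGs by library shows. A pair lay 54 and 13 bp before the transcription start, 20 lay in intron 1 between 879 and 1253 bp after it, 4 in intron 9 between 16242 and 16330 bp after it and 7 in intron 10. The CpGs of intron 1 form the core of the ICR reading and sat on 3 adjoining fragments of 88, 153 and 133 bp that are bounded by CCGG sites. These 3 fragments reached from position 13131639 to 13132013 and were each read from both ends. The enzyme is not given in the sources used here.

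**Figure D1:**
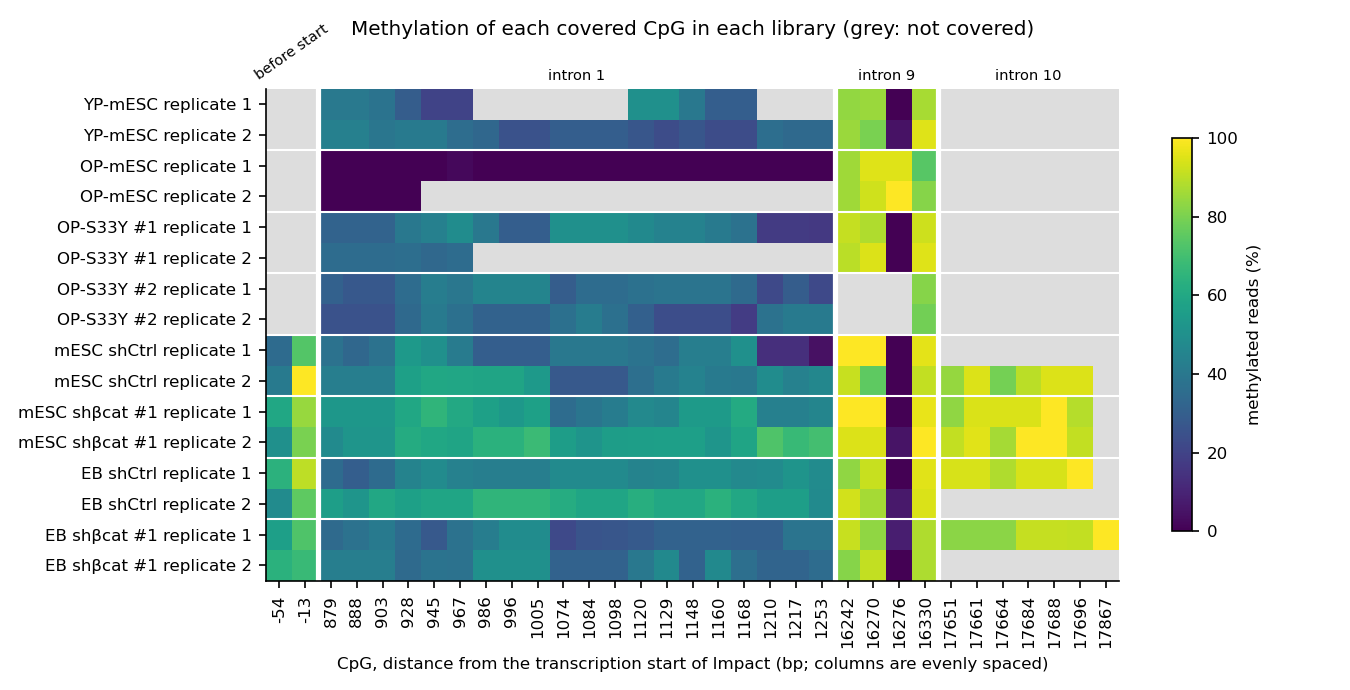
Percentage of methylated reads of each of the 33 covered CpGs (columns, labelled by distance from the transcription start in bp and evenly spaced) in each of the 16 libraries (rows), with grey for CpGs not covered. The intron 1 CpGs are near 0 in the OP-mESC libraries and partly methylated in the other 14 libraries, while introns 9 and 10 are highly methylated apart from the CpG at 16276 bp.

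Only 5 of the 33 CpGs were covered in all 16 libraries. They were the 4 CpGs of intron 1 at 879, 888, 903 and 928 bp, all on the first fragment, and the CpG of intron 9 at 16330 bp. Other CpGs named below were chosen after their values were seen. The level of the ICR in a library is the mean percentage of the ICR CpGs that it covered, and the same mean over the 4 common CpGs is given where the covered set matters.

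In YP-mESCs the ICR level was 35.3% and 32.2% in the 2 replicates (33.8% ± 2.2, SD, n = 2), from 368 and 596 reads on 11 and 20 CpGs. In OP-mESCs it was 0.10% in replicate 1 and 0 in replicate 2 (0.05% ± 0.07, SD, n = 2). The ICR was thus partly methylated in young cells and close to unmethylated in old cells, without overlap. Replicate 1 of the OP-mESCs held 1 methylated of 454 reads (0.22%, exact Clopper-Pearson 95% interval 0.00558% to 1.22%). Replicate 2 held 0 of 72 reads, 18 at each of 4 CpGs, with an upper limit of 4.99% by the same interval and of 4.17% by a floor of 3 counts. Reads without molecular identifiers are not independent molecules and several CpGs share a read, so such intervals are too narrow. In replicate 2 all 4 CpGs were covered by forward reads of the first fragment, 18 at each. The same reads were thus counted at each CpG, and both upper limits are too low.

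The difference of OP-mESCs and YP-mESCs was -33.7 points over all covered CpGs. It was -39.4 points over the 4 CpGs that all 4 libraries shared, where YP-mESCs read 37.1% and 41.7% and both OP-mESC libraries read 0. The CpG at 879 bp, the first of the ICR intron, read 40.5% and 43.5% in YP-mESCs and 0 of 14 and 0 of 18 reads in OP-mESCs. In the window, 4 of 8 comparable CpGs were lower by more than 25 points, beside 3.38% of all CpGs, and 1 was higher, beside 0.142%. Without OP-mESC replicate 2, which covered few CpGs, 12 of 15 CpGs were past 25 points, 11 of them lower and 1 higher. Nothing is read from these shares and counts, since this comparison chose the locus. The mean difference over all CpGs of the genome was -3.32 points, and 9 of 12 ICRs with a value were lower in OP-mESCs, with a median of -12.0 points. Impact had the third lowest of these 12 differences.

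The S33Y clones, which had also been cultured for long, did not share this loss. The ICR level was 37.2% and 35.2% in OP-S33Y #1 (36.2% ± 1.4, SD, n = 2). In OP-S33Y #2 it was 34.99% and 31.7% (33.3% ± 2.3, SD, n = 2). Each of the 4 libraries was far above both OP-mESC libraries. Against YP-mESCs, the level differed by 2.41 points in clone #1 and by -0.43 points in clone #2, both within the spread of replicates. Over the 4 CpGs covered in all 16 libraries, clone #2 read 30.4% and 27.3%, below the 37.1% and 41.7% of YP-mESCs without overlap, a difference of -10.6 points that did not pass the quasi-binomial F test over all ICRs (adjusted p = 0.484). The planned F test used the 6 and 11 ICR CpGs common to the libraries compared, where clones #1 and #2 differed from YP-mESCs by 0.55 and -2.67 points. Neither difference passed the quasi-binomial F test over all ICRs (adjusted p = 0.849 and 0.804), which called 20% and 43.8% of the ICRs tested. The difference of clone #2 and clone #1 was -2.84 points and did not pass the quasi-binomial F test over all ICRs either (adjusted p = 0.937, with 21.4% of the ICRs called). The smallest p that an exact permutation test allows for 2 against 2 libraries is 0.33, hence the fit over all ICRs, and a p that misses the threshold does not show equal levels.

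Single CpGs were tested as well. A CpG was called at an adjusted p under 0.05 in a binomial model of all CpGs of the genome together with a difference of more than 25 points. For OP-S33Y #1 against YP-mESCs 0 of 10 CpGs of the window were called, beside 0.164% of all CpGs higher and 0.152% lower. For OP-S33Y #2 against YP-mESCs 0 of 12 were called, beside 0.121% higher and 0.743% lower. Between the clones 0 of 7 were called, beside 0.0264% higher and 0.292% lower. At an unadjusted p under 0.05 the model gave 0, 0 and 1 CpGs in these 3 comparisons, and Fisher's exact test of the summed reads called 0 in each. The 1 CpG was that of intron 9 at 16330 bp, which read 92.5% and 95.2% in clone #1 and 81.8% and 78.6% in clone #2 (adjusted p = 0.485, binomial model). No share over all CpGs stands beside the unadjusted and Fisher counts, and nothing is read from them.

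Within the ICR the means of the clones' differences had opposite signs at the 2 ends of the first fragment. Forward reads of the first fragment were 39.9% and 41.7% methylated in YP-mESCs, 31.8% and 35.3% in clone #1, and 28.4% and 25% in clone #2. Both clones lay below YP-mESCs here without overlap, by 7.26 and 14.1 points. Reverse reads of the same fragment were 20% and 39.5% methylated in YP-mESCs, 47.8% and 35.3% in clone #1, and 39.9% and 40.9% in clone #2. Here the clones' means lay above that of YP-mESCs, by 11.8 and 10.6 points. These gaps rest on the 20% of YP-mESC replicate 1, since replicate 2 lay between the libraries of clone #1 and just below those of clone #2. Over the 4 CpGs covered in all 16 libraries, 3 of which only forward reads covered, the difference of OP-S33Y #1 and YP-mESCs was -4.73 points, the reverse of its sign over all covered CpGs.

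The control shRNA cells and YP-mESCs are both undifferentiated cells of the same line. The ICR level was 36.9% and 47.3% in the mESC shCtrl libraries (42.1% ± 7.4, SD, n = 2), and both were above both YP-mESC libraries. The mean difference was 8.37 points. The mESC shCtrl levels include the 2 CpGs before the transcription start, which no YP-mESC library covered. Over intron 1 alone, mESC shCtrl read 35.2% and 45.0% and overlapped YP-mESCs, with a difference of 6.35 points. Over the 11 ICR CpGs common to these libraries the difference was 9.74 points, without overlap. Both groups are the controls of comparisons that chose the locus, so the values are a description and no p is given, although a test had been planned. The planned test called 41.2% of 17 ICRs, Impact not among them, and nothing is read from that outcome. Over all ICRs with a value the median difference was 12.6 points, and over all CpGs of the genome the mean difference was 2.55 points. The difference was 13.6 points without mESC shCtrl replicate 1 and 3.17 points without mESC shCtrl replicate 2.

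Of 15 window CpGs, 0 were past the thresholds of the binomial model between mESC shCtrl and YP-mESCs, beside 2.58% of all CpGs higher and 0.358% lower, and nothing is read from this count. The model gave 3 CpGs at an unadjusted p under 0.05 and Fisher's exact test called 0, and nothing is read from these counts either. The count past the thresholds was 2 without mESC shCtrl replicate 1 and 3 without YP-mESC replicate 2. The CpG at 945 bp read 50% and 59.5% in mESC shCtrl and 20% and 40.7% in YP-mESCs, a difference of 24.4 points without overlap. The CpG at 967 bp read 41.7% and 59.3% in mESC shCtrl and 20% and 35.9% in YP-mESCs, a difference of 22.5 points. The CpG at 928 bp differed by 20.1 points without overlap. The CpG at 879 bp, on the forward reads of the first fragment, differed by -1.80 points, with overlapping libraries.

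The shRNA against β-catenin went with a higher ICR level in mESCs and a lower one in EBs. All 22 ICR CpGs were covered in each of the 8 shRNA libraries, so these levels compare the same CpGs, with 481 to 839 reads per library. In mESCs the level was 36.9% and 47.3% with shCtrl and 53.0% and 59.6% with shβcat #1 (56.3% ± 4.6, SD, n = 2), without overlap. The difference was 14.1 points, and 21 of the 22 CpGs had a higher mean with shβcat #1. In EBs the level was 47.7% and 59.5% with shCtrl (53.6% ± 8.3, SD, n = 2) and 37.2% and 41.7% with shβcat #1 (39.4% ± 3.2, SD, n = 2), again without overlap. The difference was -14.2 points, and 21 of the 22 CpGs had a lower mean with shβcat #1. No share over all CpGs stands beside either count of 21, and nothing is read from them.

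**Figure D2:**
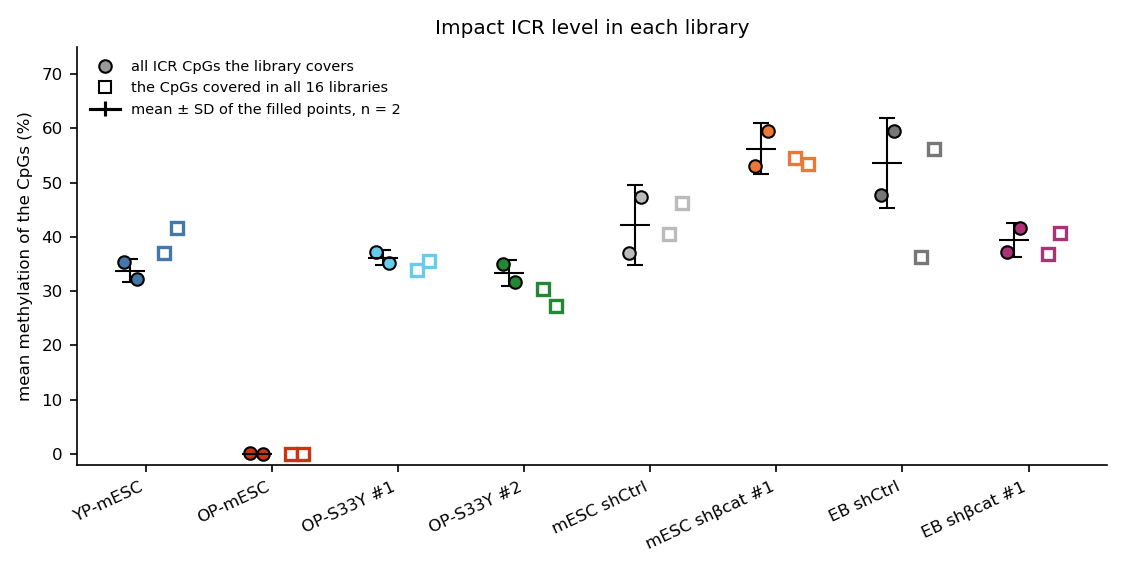
ICR level of Impact (mean methylation of its CpGs, %) by condition. Filled circles are the single libraries over all CpGs they cover, black bars their mean ± SD (n = 2), and open squares the same libraries over the 4 CpGs covered in all 16 libraries. OP-mESCs lie at 0.05%, and the shβcat #1 libraries lie above shCtrl in mESCs and below it in EBs for the filled circles.

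Of the 22 ICR CpGs, 13 had both mESC shβcat #1 libraries above both mESC shCtrl libraries, beside 14.1% of all CpGs of the genome, and 0 had them below, beside 6.24%. In EBs 14 had both EB shβcat #1 libraries below both EB shCtrl libraries, beside 14.3%, and 0 had them above, beside 12%. Nothing is read from these counts, since both comparisons chose the locus and neighbouring CpGs share reads. Past 25 points, 3 of 26 window CpGs were higher in mESC shβcat #1, beside 0.621% of all CpGs, and 0 were lower, beside 0.166%. In EB shβcat #1, 1 of 26 was lower, beside 0.308%, and 0 were higher, beside 0.535%. The 3 CpGs lay at 1210, 1217 and 1253 bp on the reverse reads of the third fragment. At 1253 bp the libraries read 4.55% (22 reads) and 46.3% with mESC shCtrl and 45.7% and 70% with shβcat #1, which overlap. Without mESC shCtrl replicate 1 the count past 25 points was 0, and without replicate 2 it was 6. The CpG that was lower in EBs lay at 1074 bp and read 48.0% and 61.8% with shCtrl and 22.2% and 31.25% with shβcat #1. The count in EBs ranged from 0, without EB shβcat #1 replicate 1 or EB shCtrl replicate 2, to 7, without EB shCtrl replicate 1.

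The size of both differences also depended on the library left out and the CpGs used. In mESCs it was 8.93 points without shCtrl replicate 1. In EBs it was -8.29 points without shCtrl replicate 2, and -7.42 points over the 4 CpGs covered in all 16 libraries. On these 4 CpGs EB shCtrl read 36.2% and 56.2% and EB shβcat #1 read 36.8% and 40.8%, which overlap. The direction was kept in each of these settings. In mESCs the same 4 CpGs read 40.5% and 46.3% with shCtrl and 54.6% and 53.4% with shβcat #1, without overlap.

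Reads that start at the same site and run in the same direction cover the same few CpGs, so the 22 CpGs are far fewer separate measurements. Cytosines of intron 1 fell into 6 such read ends, the forward and reverse reads of each of the 3 fragments. Of 84 sets of cytosines that shared a read end and a library, 65 had the same depth at each cytosine, and the percentages within a set spread over a median of 3.51 points. In the 8 shRNA libraries the depth of a cytosine in these sets was 10 to 58 reads.

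Counted by read end, shβcat #1 was higher than shCtrl in mESCs at 6 of 6 ends, by 6.18 to 28.6 points with a median of 13.2, and 2 ends had no overlap of libraries. In EBs it was lower at 6 of 6 ends, with differences of -25.9 to -4.18 points and a median of -17.1 points, and 4 ends had no overlap. Nothing is read from these counts either, since the same comparisons chose the locus and no share over the genome stands beside them. Replicates in mESCs lay closest together at the forward reads of the third fragment, where mESC shCtrl read 41.4% and 42.1% and mESC shβcat #1 read 54.0% and 56.0%. The same read end gave 46.7% and 61.6% in EB shCtrl and 31.4% and 42.0% in EB shβcat #1. The reverse reads of the second fragment gave the widest gap in EBs, with 48.0% and 60.3% in shCtrl and 25.2% and 31.2% in shβcat #1.

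**Figure D3:**
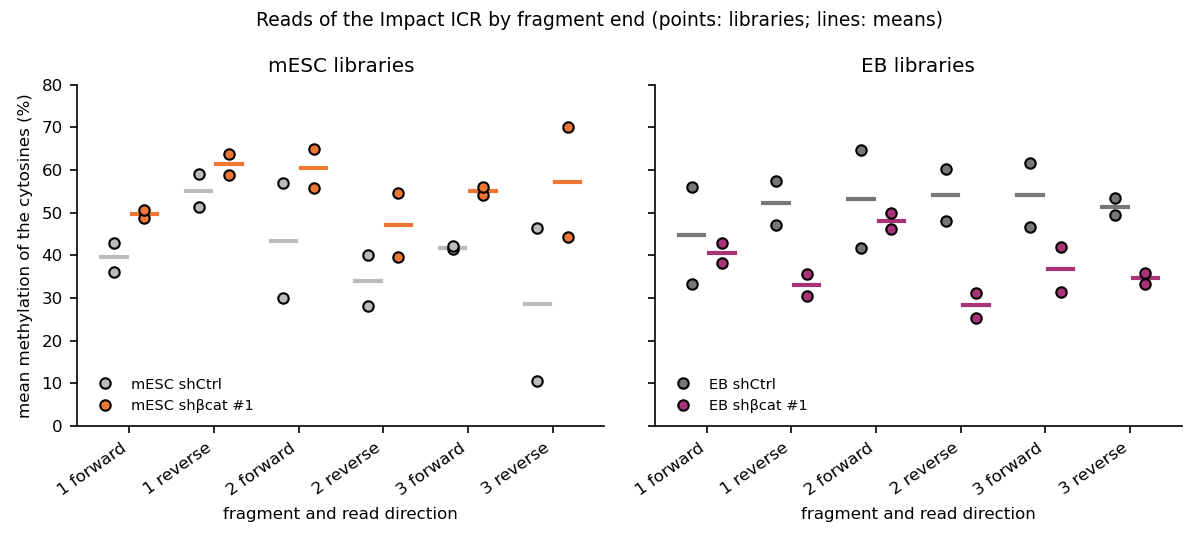
Mean methylation (%) of the intron 1 cytosines by fragment (1 to 3) and read direction, in mESC libraries (left) and EB libraries (right). Points are libraries and lines are means of 2, and shβcat #1 has the higher mean at 6 of 6 read ends in mESCs and the lower mean at 6 of 6 in EBs.

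Among the ICRs, the differences at Impact were the extremes in both comparisons. In mESCs 19 ICRs had a value, with a median difference of 0.55 points between shβcat #1 and shCtrl, and Impact had the highest one. In EBs 19 ICRs had a value, with a median of -0.69 points, and Impact had the lowest one. Over all CpGs of the genome the mean difference was 1.25 points in mESCs and -0.30 points in EBs. Since Impact was chosen for these values, its rank is a description.

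**Figure D4:**
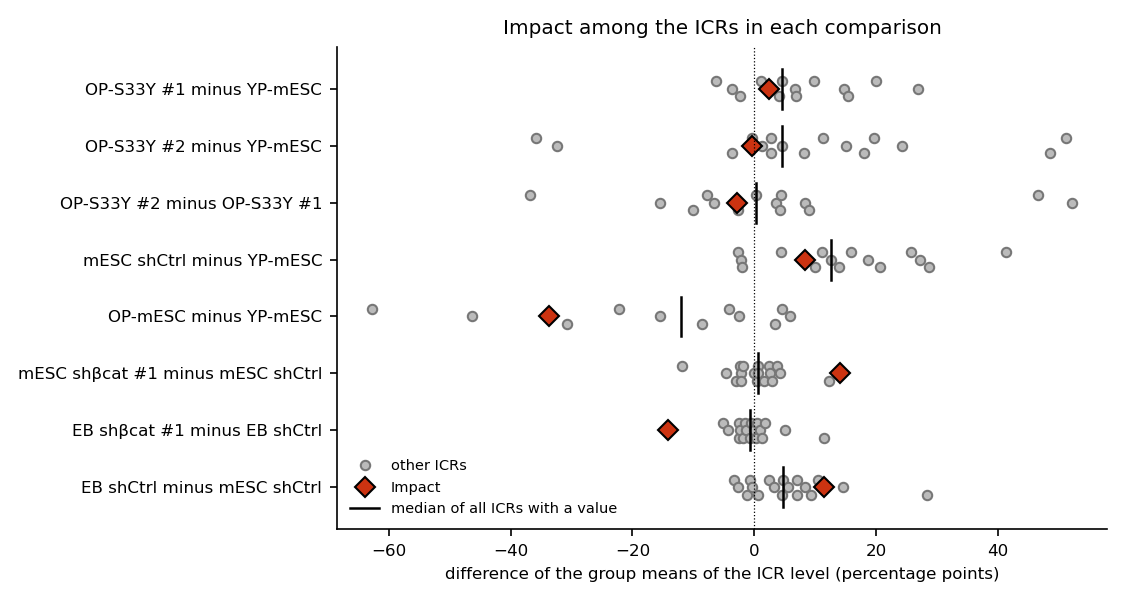
Difference of the group means of the ICR level (percentage points) in 8 comparisons, for Impact (red diamonds) and the other ICRs with a value (grey circles), with the median of all as a black line. Impact is at 14.1 points in mESCs and at -14.2 points in EBs for shβcat #1 against shCtrl, beyond the other ICRs, and at -33.7 points for OP-mESCs against YP-mESCs.

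Between the control libraries, the ICR level was 47.7% and 59.5% in EBs and 36.9% and 47.3% in mESCs, a difference of 11.4 points with a narrow gap between the groups. Over intron 1 alone the libraries overlapped, with 44.8% and 59.2% in EBs and 35.2% and 45.0% in mESCs, a difference of 11.9 points. These libraries also enter the shRNA comparisons, so that a high EB shCtrl value raises this difference and lowers the one of EB shβcat #1 at once. The difference was 5.56 points without EB shCtrl replicate 2, 6.24 points without mESC shCtrl replicate 1, 17.3 points without EB shCtrl replicate 1 and 2.81 points over the 4 CpGs covered in all 16 libraries. Of the 22 CpGs, 19 had a higher mean in EBs. CpGs of a read end share reads and no share over all CpGs stands beside this count, so nothing is read from it. Past 25 points, 1 of 26 window CpGs was higher, beside 7.22% of all CpGs, and 0 were lower, beside 0.167%, and the mean difference over all CpGs was 4.49 points. The count past 25 points was 3 without EB shCtrl replicate 1 and without either mESC shCtrl replicate. The ICRs had a median difference of 4.64 points.

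In order of its mean the ICR level ran from OP-mESCs through OP-S33Y #2, YP-mESCs, OP-S33Y #1, EB shβcat #1, mESC shCtrl and EB shCtrl to mESC shβcat #1. Neighbours in this order overlapped in their libraries except at 2 steps, from OP-mESCs to OP-S33Y #2 and from mESC shCtrl to EB shCtrl. At the second of these steps, the nearest libraries read 47.3% and 47.7%, and over intron 1 alone the 2 groups overlapped. The order also rests on CpG sets that differ between conditions. Over the 4 CpGs covered in all 16 libraries, YP-mESCs (39.4%) lay above OP-S33Y #1 (34.7%) and EB shβcat #1 (38.8%). The ICRs whose condition means followed those of Impact most closely, among 10 with a value in all 8 conditions, were Plagl1 (Pearson r = 0.90), Grb10 (0.89) and Mest (0.84). Without OP-mESCs these values were 0.50, 0.50 and 0.69, and Commd1 was then the closest (0.76, and 0.69 with OP-mESCs). The points share libraries and are condition means, and r is given as a description.

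The 2 CpGs before the transcription start were covered only in the 8 shRNA libraries, with 10 to 36 reads. The CpG at 54 bp before the start read 34.8% and 41.2% in mESC shCtrl, 59.4% and 50% in mESC shβcat #1, 64.3% and 48.4% in EB shCtrl, and 56.25% and 63.9% in EB shβcat #1. It was higher with shβcat #1 in mESCs without overlap, and overlapped in EBs. The CpG at 13 bp before the start read 73.3% and 100% in mESC shCtrl, 84.4% and 80% in mESC shβcat #1, 90% and 75% in EB shCtrl, and 72.4% and 67.6% in EB shβcat #1. It overlapped in mESCs and was lower with shβcat #1 in EBs.

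The strands differed at these 2 CpGs. At 13 bp before the start, forward reads were 85.7% to 100% methylated and reverse reads 20% to 63.6%, and the forward strand was higher in 6 of 6 libraries that covered both, by a median of 38.8 points. At 54 bp before the start the reverse strand was higher in both libraries that covered both strands. The level of these CpGs over summed strands therefore moves with the share of reads from each strand, and this part was not tested further. In intron 1, the CpGs covered on both strands at 928, 967 and 1120 bp had median strand differences of -1.47, -3.70 and 0.97 points. In single libraries these differences ranged from -27.4 to 20.5, from -20 to 15.5 and from -13.3 to 16.4 points. Leaving out the 2 CpGs before the start gave differences of 14.9 points in mESCs and -15.2 points in EBs for shβcat #1 against shCtrl.

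Of the 4 covered CpGs of intron 9, 3 were highly methylated in every library that covered them. The CpG at 16330 bp was covered in all 16 libraries and read 74.1% to 100% with a median of 91.7%. The OP-mESC libraries read 74.1% and 81.8% and the YP-mESC libraries 86.8% and 95%, a difference of -13.0 points without overlap. The CpGs at 16242 and 16270 bp read 81.8% to 100% and 75% to 100% in the 14 libraries that covered them, OP-mESCs included. In intron 10, 6 CpGs were covered in 5 shRNA libraries and read 78.9% to 100%, and 1 further CpG was covered in EB shβcat #1 replicate 1 alone. Near-complete loss in OP-mESCs was thus seen at the covered intron 1 CpGs of the ICR, while these 3 CpGs of intron 9 read at least 74.1% in OP-mESCs. Of the 20 intron 1 CpGs, OP-mESC replicate 2 covered only 4, so the loss at the others rests on replicate 1. No OP-mESC library covered the CpGs before the transcription start.

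The CpG at 16276 bp, at position 13147037, went the other way. It read 95.2% (21 reads) and 100% (14 reads) in the OP-mESC libraries and 0 to 8.33% in the other 12 libraries that covered it, with 11 to 57 reads. The same reads covered the CpGs at 16242 and 16270 bp, which were highly methylated in all 14 libraries. In bisulfite reads, a thymine in place of the cytosine and an unmethylated cytosine look alike, and the 2 cannot be told apart here.

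**Figure D5:**
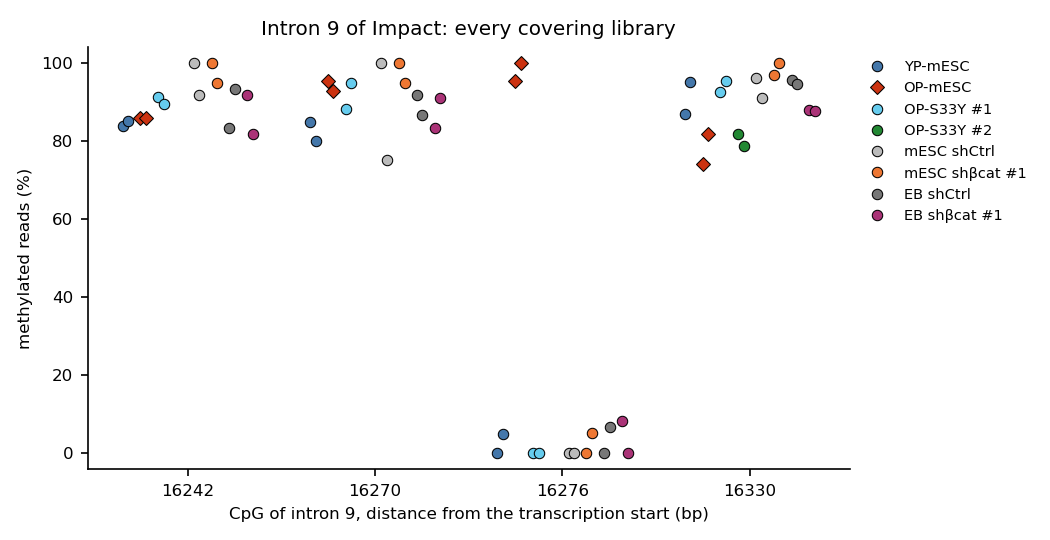
Percentage of methylated reads at the 4 covered CpGs of intron 9, by distance from the transcription start (bp, evenly spaced), with a point for each covering library. The OP-mESC libraries (diamonds) lie at 95.2% and 100% at 16276 bp, where the other 12 covering libraries lie at 0 to 8.33%.

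Such a pattern was rare in the genome. Among 380357 CpGs covered in both OP-mESC libraries and in at least 10 others, 8 had at least 90% in OP-mESCs and at most 10% in each other library, and 0 had the reverse. The CpG at 16276 bp, whose pattern these limits describe, is 1 of the 8. In each of the other 7 conditions, 0 CpGs stood apart from the rest in this way, among 627061 to 734589 CpGs compared. With limits of 75% and 25%, a choice made after the data were seen, 27 CpGs were high and 17 low in OP-mESCs alone, and 1 CpG stood apart in EB shβcat #1.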

How the data were processed

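RRBS was performed on 16 libraries of E14 cells in 8 conditions with 2 replicates each, grouped by the sample labels. The authors trimmed the reads (CASAVA 1.8.2, Trim Galore 0.2.8), aligned them to mm9 with Bismark 0.7.9 and extracted CpG calls. They deposited a count of reads and a percent of methylated reads for each cytosine, with no normalization, no pooling and at least 10 reads at each cytosine. The enzyme and the handling of duplicate reads are not given in the sources used here. Duplicates, if kept, would make reads less independent than the tests take them to be.

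The deposited count and percent gave the methylated reads, and strands were summed. The 49671 cytosines of chromosome 18 in the files all lay in a CG of the reference (NCBIM37). Genes came from GENCODE vM1. ICR coordinates are those of the study. An ICR's level is the mean over its CpGs, of which at least 2 were needed. Single CpGs were tested with a binomial model with 1 overdispersion for all of them, and ICRs with a quasi-binomial F test on summed reads of common CpGs, both with Benjamini-Hochberg adjustment over all CpGs or ICRs. The text names the CpGs covered in all 16 libraries and the 3 ICRs most like Impact by rule. The window, the comparisons and the lists were chosen with earlier results of these data known.

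Both tests were tried on simulated reads. The first requirement set for the share of changed single CpGs to be recovered was missed. It was then lowered over all CpGs, and a requirement on deeply covered CpGs was added, while the test itself stayed as it was. A CpG that was not called is therefore not shown to be unchanged. Alternatives were other minimums of reads and of the difference, common CpGs, read-weighted levels, separate strands, a shorter region, a coverage cap, Fisher's exact test, a replicate block and each replicate left out. The intron 1 level and the limits of 75% and 25% were added after the data were seen. The software was matplotlib 3.10.9, pandas 2.3.3, scipy 1.17.1 and numpy 2.4.6 under Python 3.11.15.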

Additional observations from a re-analysis of the deposited data

Results flagged for a closer look

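The ICR level of Impact moved in opposite directions with the shRNA against β-catenin in the 2 cell states. It was higher than with shCtrl by 14.1 points in mESCs, where both shβcat #1 libraries were above both controls, and differed by -14.2 points in EBs, where both were below. The difference between the 2 effects was not tested, because the locus was chosen for it.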

How the results depend on the processing

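Of 163 values recomputed under alternatives, 22 moved and 6 changed sign. Some of the others could not differ, since the coverage cap, the shorter region or the common CpGs left the same CpGs in a comparison. Over the 4 CpGs covered in all 16 libraries, the ICR difference was -4.73 points for OP-S33Y #1 against YP-mESCs, -10.6 points for OP-S33Y #2 against YP-mESCs and -39.4 points for OP-mESCs against YP-mESCs, the latter also over the CpGs common to those 4 libraries. With at least 20 reads, OP-S33Y #2 was 4.09 points above YP-mESCs and 0.40 points above OP-S33Y #1, and 0 window CpGs were past 25 points in OP-mESCs (of 1 compared) and in EB shβcat #1. With read-weighted levels OP-S33Y #2 was 2.12 points above YP-mESCs. With a limit of 20 points, 2 window CpGs were past the thresholds of the binomial model for mESC shCtrl against YP-mESCs. At the same limit 6 were lower in EB shβcat #1 and 4 were higher in EB shCtrl than in mESC shCtrl. With strands kept apart, 1 was past the thresholds of the model for mESC shCtrl against YP-mESCs and 2 were lower in EB shβcat #1. No share over all CpGs stands beside these counts, and nothing is read from them, those of mESC shCtrl against YP-mESCs included.

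Leaving out each library in turn gave ICR differences of -2.07 to 1.22 points for OP-S33Y #2 against YP-mESCs. The counts of CpGs ranged from 0 to 3 for mESC shCtrl against YP-mESCs, from 5 to 12 for OP-mESCs against YP-mESCs, from 0 to 6 for mESC shβcat #1, from 0 to 7 for EB shβcat #1, and from 1 to 3 for EB shCtrl against mESC shCtrl. The highest counts came without YP-mESC replicate 2, OP-mESC replicate 2, mESC shCtrl replicate 2 and EB shCtrl replicate 1 in the first 4 of these. The cause of these changes was not tested. No share over all CpGs stands beside the counts with a library left out, and nothing is read from them.

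Replicate numbers did not pair the samples (correlation of deviations -0.034 to 0.053). With the replicate block, OP-S33Y #1 against YP-mESCs had an adjusted p of 0.947 in the Cochran-Mantel-Haenszel test. This test used the 6 ICR CpGs common to the libraries compared, and the block changed no call. The ICR level of OP-mESCs with at least 20 reads was not run, since too few CpGs remained. OP-mESC replicate 2 covered 4 ICR CpGs, which limits what its level can show.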
